A study of Mus musculus with 10 samples.

Results

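The mitochondrial genome of the mouse encodes a small set of respiratory chain proteins, and their mRNAs were examined here in cells washed from the peritoneal cavity of septic mice. Every row of the deposited gene table whose symbol begins with mt- was taken. This gave 13 of 34745 genes, all on chromosome MT, and the same 13 rows were the only ones with a locus on that chromosome. All 13 encode proteins, so mitochondrial rRNAs and tRNAs were not analysed here. The 10 libraries came from mice with cecal ligation and puncture, an operation that leaks gut bacteria into the abdomen and so causes sepsis. Of these, 5 carry the label AX (numbered 6 to 10) and 5 the label NC (numbered 1 to 5). The labels spell out neither abbreviation. AX is taken here to stand for amlexanox, an inhibitor of the kinases TBK1 and IKKε, and NC for its vehicle. Both groups share the operation, and the sources used here give no strain, age, dose or time of sampling. No label says whether each library is a separate animal, so p-values measure the spread between these libraries, which may be partly technical.

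Mitochondrial DNA is a circle that is transcribed along both strands into long precursors. The tRNAs that lie between most of the protein genes are cut out, which releases the mRNAs, and most of these then receive a poly(A) tail. The products form the core of complex I (the mt-Nd genes), complex III (mt-Cytb), complex IV (the mt-Co genes) and ATP synthase (mt-Atp6 and mt-Atp8). Nuclear genes supply the remaining subunits and all of the transcription machinery. Of the 13 genes, 12 lie on the plus strand of the reference and 1, mt-Nd6, lies on the minus strand. All 13 spans in the table equal those of GENCODE M21 on GRCm38, which is the same assembly as mm10, and the sequences below come from the GENCODE M21 transcripts.

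The genes are packed so closely that neighbours share bases, and this bears on how reads are counted. The largest overlap joins the ATP synthase genes: mt-Atp8 (MT:7766-7969) and mt-Atp6 (MT:7927-8607) share 43 bases in different reading frames and are known to be translated from 1 mRNA. The last 80 bases of mt-Atp8 (MT:7890-7969), the first 80 of mt-Atp6 (MT:7927-8006) and the first 80 of Gm10925, a pseudogene on the minus strand of chromosome 1 (chr1:24614572-24614651), are printed because the most uneven result below concerns mt-Atp6. The capitals mark the shared 43 bases.
mt-Atp8: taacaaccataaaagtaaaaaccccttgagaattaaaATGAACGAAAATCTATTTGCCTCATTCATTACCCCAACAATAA
mt-Atp6: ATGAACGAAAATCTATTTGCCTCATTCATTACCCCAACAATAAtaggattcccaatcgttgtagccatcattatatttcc
Gm10925: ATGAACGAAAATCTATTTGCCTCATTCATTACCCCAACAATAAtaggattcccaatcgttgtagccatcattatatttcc

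Gm10925 matched mt-Atp6 at all 678 bases of its annotated length, so that only the stop codon of mt-Atp6 lies beyond it. The 3′ ends are shown, with that stop codon in capitals (MT:8548-8607 and chr1:24613974-24614030, minus strand).
mt-Atp6: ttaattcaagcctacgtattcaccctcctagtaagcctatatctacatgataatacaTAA
Gm10925: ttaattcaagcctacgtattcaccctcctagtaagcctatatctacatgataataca

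The complex I genes mt-Nd4l and mt-Nd4 also overlap on a single strand, with 7 shared bases at MT:10167-10173, marked in capitals (windows MT:10134-10173 and MT:10167-10206).
mt-Nd4l: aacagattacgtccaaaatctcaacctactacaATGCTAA
mt-Nd4: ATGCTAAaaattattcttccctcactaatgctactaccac

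The ends of mt-Nd5 and mt-Nd6 meet on opposite strands and overlap by 14 bases at MT:13552-13565. Each is printed in its own direction, with the overlap in capitals (MT:13526-13565, plus strand, and MT:13552-13591, minus strand).
mt-Nd5: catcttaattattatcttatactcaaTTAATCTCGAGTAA
mt-Nd6: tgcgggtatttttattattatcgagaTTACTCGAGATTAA

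The pair of mt-Atp6 and mt-Co3, also on the plus strand, shares 1 base (MT:8607). The base composition sets mt-Nd6 apart: its sense strand held 28.1% G and 5.97% C, while the other 12 ranged from 5.88% G (mt-Atp8) to 16.1% G (mt-Co1) and from 22.1% C (mt-Nd3) to 29.97% C (mt-Nd4l). The annotated mRNAs of mt-Co3, mt-Nd4 and mt-Cytb stop 1 base after their last whole codon, at a T. In these the poly(A) tail is known to complete the UAA stop codon, whereas mt-Co1 ends in a full stop codon. Their last 30 bases are given with the stop in capitals (MT:9361-9390, MT:11515-11544, MT:15259-15288 and MT:6843-6872).
mt-Co3: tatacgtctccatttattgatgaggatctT
mt-Nd4: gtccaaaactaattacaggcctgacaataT
mt-Cytb: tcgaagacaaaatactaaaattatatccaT
mt-Co1: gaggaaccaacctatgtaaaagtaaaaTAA

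Total counts per library ran from 10221170 (NC 1) to 13806885 (NC 2). Of the 5 markers of leukocyte identity, Ptprc, the pan-leukocyte CD45 gene, was present at 341 to 1138 CPM (the count scaled to a fixed library total) in 9 libraries and at 19.4 CPM in AX 8. Itgam, Spi1 and Tyrobp were also lowest in AX 8. Fcer1g stood at 1062 CPM in AX 8, within the 936 to 1729 CPM of the other libraries. The 5 markers summed to 1487 CPM in AX 8 and to 1836 to 5778 CPM in the others. Summed neutrophil markers, 15 of 15 detected and led by S100a9 and Lcn2, ranged from 7572 to 17266 CPM in AX and from 10727 to 21107 CPM in NC. AX 6 and NC 1 stood apart by markers of the cavity lining and stroma, and by gut markers together with NC 4. The 10 mesothelial markers summed to 2358 and 1229 CPM in these libraries and to 114 to 386 CPM in the others, and the 7 stromal markers to 2629.7 and 1376 CPM against 228 to 731 CPM. The 8 gut epithelial markers summed to 393 CPM in AX 6, 885 CPM in NC 1 and 315 CPM in NC 4, and to 12.5 to 90.3 CPM in the other 7. Of 7 muscle markers, listed because muscle is rich in mitochondria, Myh1, Myh6 and Actc1 were at 0 in all libraries and the rest summed to at most 11.5 CPM.

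Mitochondrially encoded mRNAs made up between 4.47% and 20.1% of all gene counts, a range of 4.5-fold. In NC the share was 8.74% in NC 1, 4.47% in NC 2 (95% Wilson interval 4.46 to 4.48%), 7.16% in NC 3, 12.6% in NC 4 and 15.7% in NC 5. In AX it was 12.1% in AX 6, 8.46% in AX 7, 18.6% in AX 8, 6.35% in AX 9 and 20.1% in AX 10 (Wilson interval 20.10 to 20.14%). The intervals cover counting error only, since no molecular identifiers are described, and they were far narrower than the gaps between libraries. The groups overlapped over most of their range: the mean was 13.1 ± 6.09% for AX and 9.72 ± 4.44% for NC (± SD, n = 5 each). The difference of 3.41 percentage points is smaller than either SD, and it was 1.66 points without AX 10. A sum over the chosen genes was not tested. In bulk RNA, fewer cells rich in mitochondria and less mitochondrial RNA per cell cannot be told apart.

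**Figure D1:**
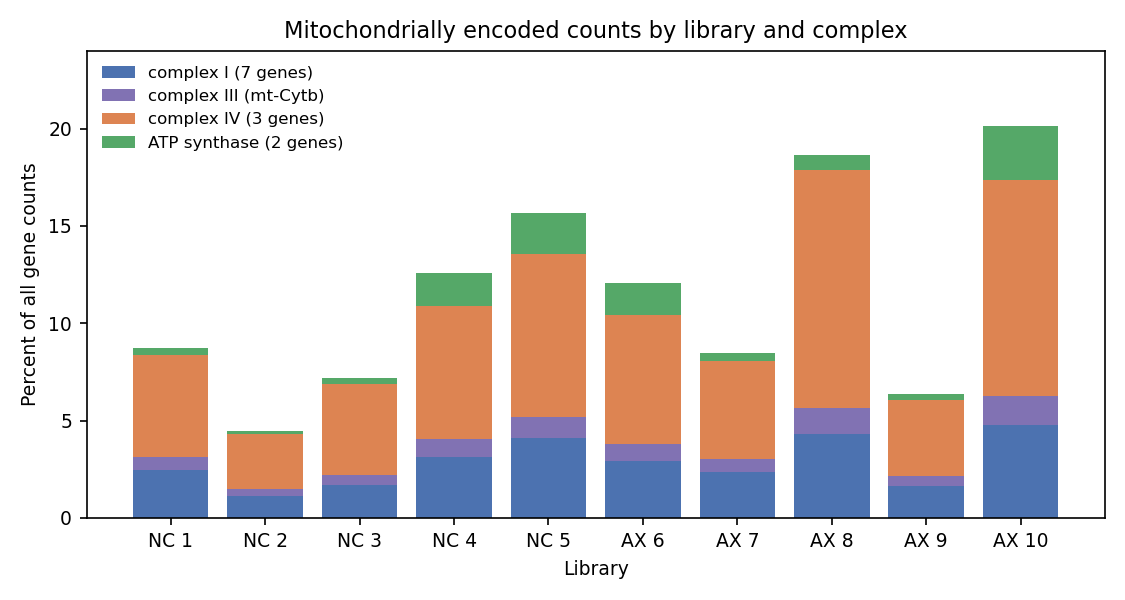
Percent of all gene counts (vertical axis) taken by the 13 mitochondrially encoded mRNAs in each library (horizontal axis), stacked by respiratory complex; each bar is 1 library, without error bars. The bars run from 4.47% in NC 2 to 20.1% in AX 10, and the ATP synthase part is thin in NC 1, NC 2, NC 3, AX 7, AX 8 and AX 9.

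Marker levels of other cells followed this share, or ran against it, in some libraries and not in others. CPM divides by a total that includes the mitochondrial counts, so a larger share by itself lowers the CPM of nuclear genes. NC 2, with the lowest mitochondrial share, had the highest neutrophil sum (21107 CPM), and AX 10, with the highest share, had the lowest (7572 CPM). AX 9, second lowest by share, had the second highest neutrophil sum, 17266 CPM, whereas NC 1 combined a low neutrophil sum of 10727 CPM with a share in the middle of the range. AX 8, with a share of 18.6%, had a neutrophil sum of 13535 CPM, above the median of 13046 CPM over all libraries. S100a9 made up 6808 CPM of that sum, its highest level in any library. Lcn2, at 2598 CPM in AX 8, was lower only in AX 10. S100a9 and Lcn2 were also lowest in AX 10, but Csf3r stood at 198 CPM there, in a range of 82.9 to 284 CPM. The nuclear-retained RNAs, led by Neat1, summed to 5845 CPM in AX 10 and 4348 CPM in AX 8, the libraries with the largest mitochondrial shares. In the others this sum ran from 628 to 3462 CPM and did not follow the share. Its upper end there was AX 9, with a share of 6.35%, whereas NC 5, with a share of 15.7%, had only 1665 CPM. Neat1 made up most of the sum in every library. Malat1 was highest in AX 9, at 222 CPM, against 171 CPM for AX 10 and 123 CPM for AX 8. Markers of large peritoneal macrophages summed to 20222 to 42031 CPM, nearly all of it from the acute-phase gene Saa3; without Saa3 the sum was 130.0 to 429.6 CPM in AX and 98.3 to 253 CPM in NC. The part of these cells in the mitochondrial share was not tested.

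Complex IV contributed most of the counts. mt-Co1, the catalytic subunit, was the gene with the highest count of the whole table in 6 of 10 libraries and stood below 1 or 2 others in the remaining 4, behind genes such as Saa3 and Thbs1. Its level was 31233, 16455, 28018, 41662 and 48822 CPM in NC 1 to NC 5 and 40416, 30909, 72278, 23352 and 66123 CPM in AX 6 to AX 10. AX 8 and AX 10 lay above every NC library, AX 9 lay below 4 of them, and the groups overlapped. The fitted log2 fold change of AX against NC was 0.57 ± 0.47 (SE), equal to 1.49-fold, and its 95% interval ran from 0.729-fold to 3.03-fold (unadjusted p = 0.247, adjusted p = 1.0, quasi-likelihood test of edgeR).

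mt-Co2, the subunit that takes electrons from cytochrome c, averaged 16759 ± 8561 CPM in AX against 12192 ± 4992 CPM in NC. mt-Co3, the other core subunit, averaged 14418 ± 6765 against 10454 ± 3731 CPM. Their log2 fold changes were 0.54 ± 0.47 and 0.55 ± 0.44 (SE), close to that of mt-Co1. The 3 genes kept nearly fixed proportions: the FPKM value of mt-Co2, a level per length of mRNA, was 0.727 to 0.898 times that of mt-Co1 over the 10 libraries, and that of mt-Co3 was 0.574 to 0.682 times. Their levels varied by 3.93-fold to 4.52-fold between libraries while the ratios between them varied by at most 1.23-fold.

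mt-Cytb, the cytochrome b of complex III, is the only mitochondrially encoded subunit of that complex. It stood at 6803, 3534, 5187, 9200.1 and 10748 CPM in NC 1 to NC 5 and at 9017, 6572, 13249, 4982 and 14788 CPM in AX 6 to AX 10. The order of libraries was close to that of mt-Co1, with AX 10, AX 8 and NC 5 on top and NC 2 at the bottom. Its log2 fold change was 0.53 ± 0.44 (SE), with a 95% interval from -0.42 to 1.49. mt-Cytb took 6.85% to 7.91% of the mitochondrial counts in every library.

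The complex I genes on the plus strand behaved alike in size and precision. mt-Nd1 and mt-Nd2 stood at 9365 ± 3368 and 4856 ± 2196 CPM in AX and at 7338 ± 3083 and 4036 ± 2734 CPM in NC. mt-Nd4 and mt-Nd5 stood at 9158 ± 4261 and 6582 ± 3109.9 CPM against 6851 ± 3222 and 5024 ± 2431 CPM. The short mt-Nd3 and mt-Nd4l stood at 607 ± 300.4 and 1392 ± 492 CPM against 499 ± 291 and 1115 ± 479 CPM. All 6 had fitted values higher in AX, from 0.35 for mt-Nd2 to 0.49 for mt-Nd4 on the log2 scale, with standard errors from 0.39 to 0.53, and each 95% interval included 0.

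mt-Nd6, the complex I gene on the minus strand, differed from the others in level and in pattern. It stood at 38.8, 38.3, 127, 45.1 and 424 CPM in NC 1 to NC 5 and at 13.4, 63.2, 28.1, 32.2 and 43.0 CPM in AX 6 to AX 10. NC 5 was more than 3 times as high as the next library, NC 3, and AX 6 was lowest; the remaining 7 libraries lay between 28.1 and 63.2 CPM, so the groups overlapped. The AX libraries averaged 36.0 ± 18.5 CPM against 135 ± 166 CPM for NC, and the log2 fold change was -1.94 ± 0.74 (SE). It was the single member with an unadjusted p under 0.05 in the edgeR fit (unadjusted p = 0.0233, adjusted p = 1.0). Such a p with a lower value in AX was found for 0.514% of the 12264 genes tested, and with a higher value for 0.408%, where no member was. Exact permutation of the mean CPM (two-sided) gave p = 0.143. Without NC 5 the fitted log2 fold change was -0.82 and its unadjusted p was no longer under 0.05.

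The high values of mt-Nd6 in NC 5 and NC 3 had no counterpart in its neighbour. The FPKM of mt-Nd6 was 20.2% of that of mt-Nd5 in NC 5 and 13.04% in NC 3, and between 1.08% and 5.40% in the other 8 libraries. NC 5 was among the upper libraries for nearly all members, at 7364 CPM for mt-Nd5, but NC 3 was among the lower ones, at 3435 CPM. The sources used here do not say whether counting used strand, and without it the reads of the 14 shared bases cannot be assigned to mt-Nd5 or mt-Nd6. Of RNAs that lack a long poly(A) tail, the 71 histone genes summed to 54.2 CPM in NC 5 and 54.8 CPM in NC 3, near the low end of the 51.4 to 159 CPM over all libraries. The 4 small RNA genes of that list went the other way, with 4.34 CPM in NC 5 and 2.96 CPM in NC 3 in a range of 0.320 to 5.42 CPM. Both sums rest on few genes, since 57 of the 71 histone genes and 2 of the 4 small RNA genes stayed under 1 CPM in every library. The part of either in the level of mt-Nd6 was not tested.

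**Figure D2:**
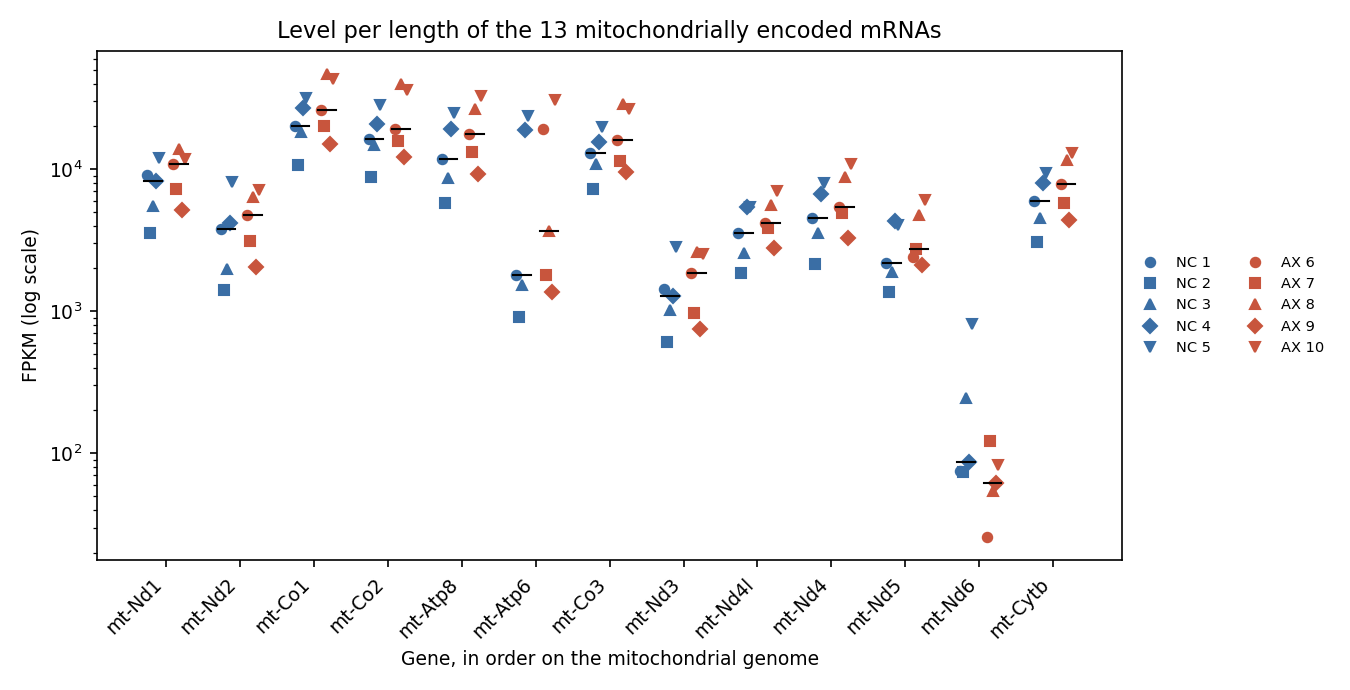
FPKM on a log axis (vertical) of each of the 13 mRNAs, in their order on the genome (horizontal); each symbol is 1 library, blue for NC and red for AX, and the short black lines are group medians. mt-Atp6 splits into 4 libraries at 18892 or above and 6 at 3682 or below, and mt-Nd6 lies below all other members in every library.

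The members can be ordered by their level per length, taken over the full annotated span (204 bases for mt-Atp8, 1824 for mt-Nd5). Counts held by the nuclear copies described below are not included, and no correction was made for short genes. By FPKM, mt-Co1 was first in all 10 libraries, with a median of 23187, followed by mt-Co2 (median 17590.5), mt-Atp8 (15342) and mt-Co3 (14342). mt-Nd1 (8676) and mt-Cytb (6914) came next, then mt-Nd4 (5163), mt-Nd4l (4013) and mt-Nd2 (3965). mt-Nd5 (2568) and mt-Nd3 (1361) followed, and mt-Nd6 was last in all 10 libraries with a median of 78.8. mt-Nd3 was 12th in all 10 libraries. Among neighbours in this order the ranges overlapped: mt-Atp8 ranked 3 in 4 libraries and 4 in 6, and mt-Nd4l, mt-Nd2 and mt-Nd5 exchanged places. mt-Atp6, by contrast, took ranks from 2 to 11.

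mt-Atp6, the proton channel subunit of ATP synthase, was the most uneven member. NC 1, NC 2 and NC 3 had 1225, 619.8 and 1044 CPM, whereas NC 4 and NC 5 had 12865 and 16044 CPM. Likewise AX 7, AX 8 and AX 9 had 1215, 2508 and 935 CPM, whereas AX 6 and AX 10 had 12953 and 20921 CPM. No library lay between 2508 and 12865 CPM, and each group held both kinds, 2 high and 3 low. As a share of the mitochondrial counts the values fell within narrow bands, from 10.2% to 10.7% in NC 4, NC 5, AX 6 and AX 10 and from 1.35% to 1.47% in the other 6 libraries.

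The partner gene showed no gap of this size. mt-Atp8, the small subunit encoded on the shared mRNA, stood at 2408, 1169, 1774, 3928 and 5089.8 CPM in NC 1 to NC 5 and at 3584, 2676, 5389, 1876 and 6723 CPM in AX 6 to AX 10. AX 8, low for mt-Atp6, had the second highest mt-Atp8 level. Relative to the other mitochondrial counts, however, mt-Atp8 was somewhat higher in the libraries with high mt-Atp6. With mt-Atp6 left out of the sum, mt-Atp8 took 3.49%, 3.62%, 3.33% and 3.73% of it in NC 4, NC 5, AX 6 and AX 10 and 2.51% to 3.21% in the other 6. The FPKM of mt-Atp6 was 0.981, 0.944, 1.08 and 0.932 times that of mt-Atp8 in NC 4, NC 5, AX 6 and AX 10. In NC 1, NC 2, NC 3, AX 7, AX 8 and AX 9 it was 0.152, 0.159, 0.176, 0.136, 0.139 and 0.149 times. Relative to mt-Co3, its neighbour on the other side, mt-Atp6 split in the same way, at 1.17 to 1.21 times in those 4 libraries and 0.125 to 0.155 times in the other 6. The pair of mt-Nd4l and mt-Nd4 showed no such split: the FPKM of mt-Nd4 was 1.17 to 1.57 times that of mt-Nd4l in all 10 libraries. The ratio of mt-Co3 to mt-Atp8, which flank mt-Atp6, was 0.810, 0.796, 0.912 and 0.798 in NC 4, NC 5, AX 6 and AX 10. In NC 1, NC 2, NC 3, AX 7, AX 8 and AX 9 it was 1.11, 1.27, 1.25, 0.875, 1.08 and 1.04, so these ranges overlapped only through AX 6 and AX 7.

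**Figure D3:**
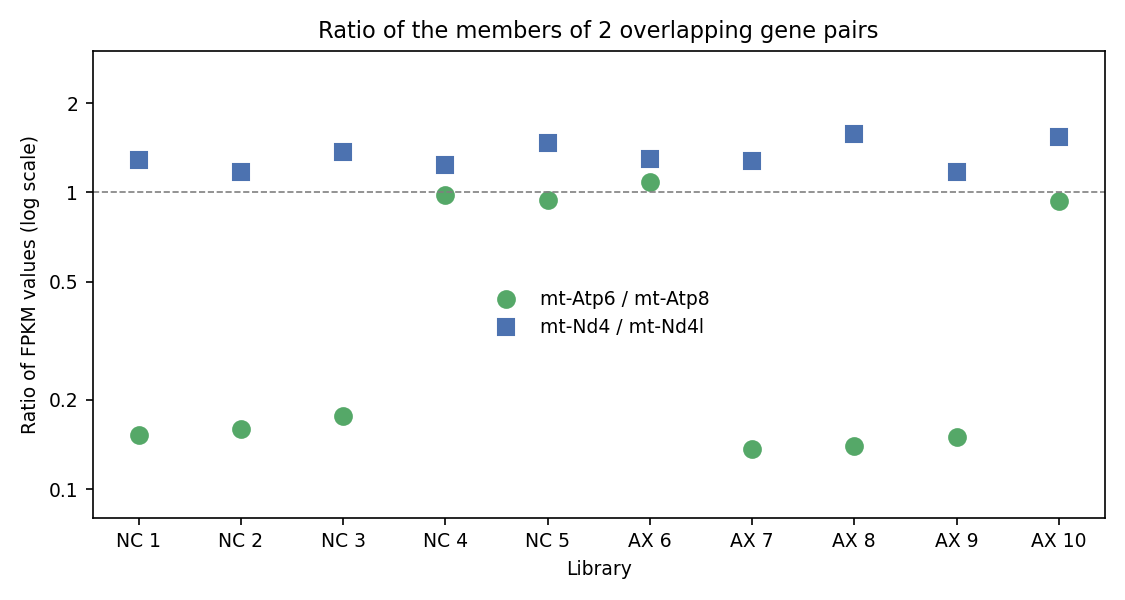
Ratio of FPKM values on a log axis (vertical) by library (horizontal) for mt-Atp6 over mt-Atp8 (green circles) and mt-Nd4 over mt-Nd4l (blue squares); each symbol is 1 library and the dashed line marks a ratio of 1. The green values lie at 0.932 to 1.08 in 4 libraries and at 0.136 to 0.176 in 6, while the blue values stay between 1.17 and 1.57.

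Because of this split the comparison of mt-Atp6 between the groups carried little information. AX averaged 7706 ± 8905 CPM against 6359.6 ± 7478 CPM for NC, so both SDs were larger than the means. The log2 fold change was 0.32 ± 1.12 (SE), with a 95% interval from 0.227-fold to 6.92-fold and adjusted p = 1.0 in edgeR. It became -0.46 without AX 10, and 1.03 without NC 5. For mt-Atp8 the log2 fold change was 0.57 ± 0.50 (SE).

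Several members have near-identical copies in nuclear DNA, which are pieces of the mitochondrial genome inserted during evolution, and the table lists these as genes of their own. A BLAST search of the 13 mRNAs against all annotated transcripts found 7 rows with at least 99% identity over at least 100 bases, 1 each for mt-Co1, mt-Co2, mt-Atp6, mt-Co3, mt-Nd3, mt-Nd4l and mt-Nd4. All 7 lie side by side within 4663 bases (chr1:24611535-24616197, mm10, minus strand) and are annotated as unprocessed pseudogenes. Identity was complete over the aligned length for 5 of them: Gm10925 (678 bases), Gm28661 with mt-Co2 (681), Gm28437 with mt-Co3 (783), Gm28439 with mt-Nd4 (876) and Gm10222 with mt-Nd4l (294). Gm28438 differed from mt-Nd3 at 1 of 345 bases and Gm29216 from mt-Co1 at 1 of 483. Gm28438, Gm10222 and, below, Gm13340 fall outside the rule for naming copies, which takes the 5 with the highest total count, and were named after their values were seen. Reads from such stretches cannot be assigned with certainty to either place.

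The single difference between mt-Co1 and Gm29216 is shown in capitals in a window of 80 bases (MT:6390-6469 and chr1:24616109-24616188, minus strand), to show how little sequence separates the copies.
mt-Co1: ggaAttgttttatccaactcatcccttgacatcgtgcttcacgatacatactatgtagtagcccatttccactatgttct
Gm29216: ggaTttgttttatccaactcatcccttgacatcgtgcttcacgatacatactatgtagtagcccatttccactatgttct

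A longer copy of mt-Co1 on chromosome 2, Gm13340, is easier to tell apart, with 37 differences over 1545 bases. A window of 80 bases that holds 4 of them is shown, with these in capitals (MT:5777-5856 and chr2:22589119-22589198, minus strand).
mt-Co1: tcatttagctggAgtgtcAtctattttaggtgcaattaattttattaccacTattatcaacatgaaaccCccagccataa
Gm13340: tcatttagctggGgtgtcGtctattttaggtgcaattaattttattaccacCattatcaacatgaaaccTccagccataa

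The counts of the 7 copies kept close to a fixed proportion of those of the mitochondrial genes. Together they held 0.233% to 1.19% of all counts, which is 4.71% to 6.39% of the mitochondrial sum in every library. The ratio of member to copy stayed within 1 band for 6 of the 7 pairs. It was 7.41 to 9.06 for mt-Co2 and Gm28661, 8.71 to 11.1 for mt-Co3 and Gm28437, and 8.82 to 12.7 for mt-Nd3 and Gm28438. For mt-Nd4l and Gm10222 it was 7.60 to 9.96, and for mt-Nd4 and Gm28439 14.3 to 17.9. The band was widest for mt-Co1 and Gm29216, at 40.1 to 76.5. The pair of mt-Atp6 and Gm10925 was the exception. Its ratio was 7.79, 7.57, 7.36 and 7.03 in NC 4, NC 5, AX 6 and AX 10, and 0.933, 1.03, 1.0035, 1.06, 0.807 and 1.11 in NC 1, NC 2, NC 3, AX 7, AX 8 and AX 9.

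In the 6 libraries with low mt-Atp6 the counts of gene and pseudogene were of similar size. They were closest in NC 3, at 12334 and 12291, and furthest apart in AX 8, at 27787 and 34419. Gm10925 itself showed no split: its counts were 8327 to 34419 in these 6 libraries and 20645 to 38042 in the other 4, and AX 8, low for mt-Atp6, had the second highest. What separates the libraries was not tested.

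**Figure D4:**
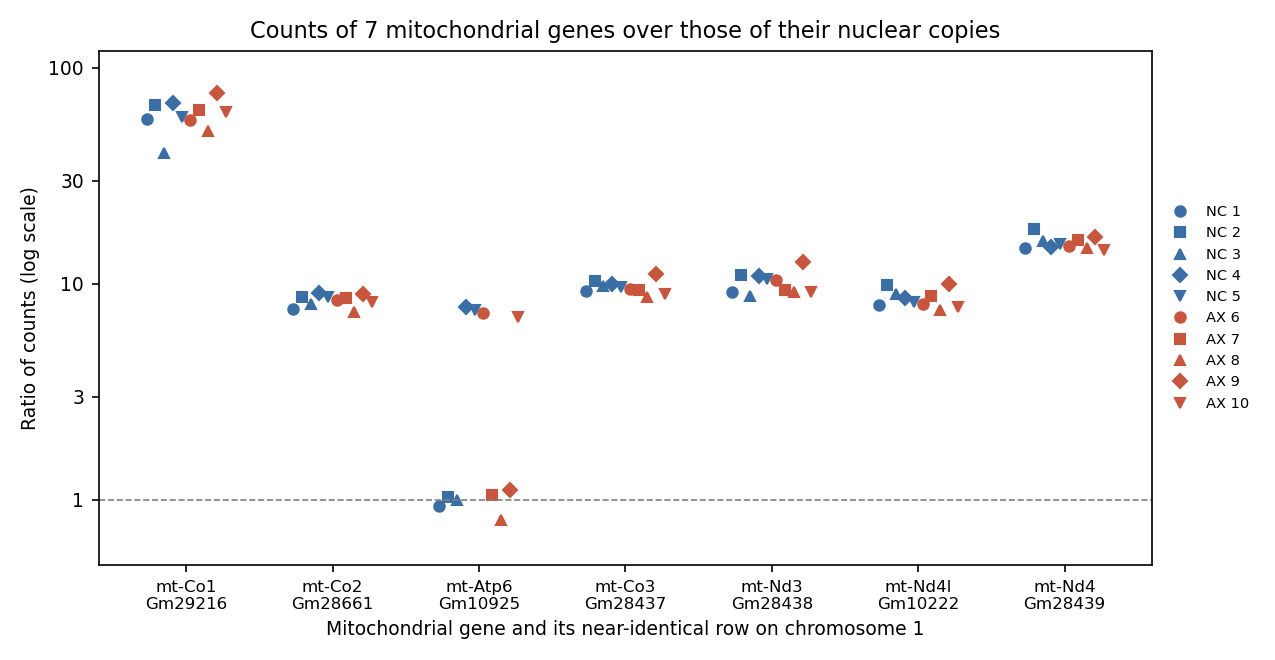
Counts of 7 mitochondrial genes divided by the counts of their near-identical pseudogenes on chromosome 1, on a log axis (vertical), for each pair (horizontal); each symbol is 1 library, blue for NC and red for AX. The mt-Atp6 pair lies near 1 (0.807 to 1.11) in 6 libraries and at 7.03 to 7.79 in 4, while each other pair forms 1 band.

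Apart from mt-Nd6, and from the lower place of AX 8 for mt-Atp6, the members ranked the libraries alike. NC 2 was lowest for 12 of the 13 members. AX 10 was highest for 6 (mt-Atp6 among them), AX 8 for 4 and NC 5 for 3 (mt-Nd6 among them), and AX 9 was among the 3 lowest for all 13. The spread from the lowest to the highest library was 3.80-fold (mt-Nd4l) to 5.78-fold (mt-Nd2) for 11 members, but 33.8-fold for mt-Atp6 and 31.7-fold for mt-Nd6. The share of each of those 11 members in the mitochondrial counts varied far less, by 1.15-fold (mt-Cytb) to 1.86-fold (mt-Nd2). With mt-Atp6 left out of the sum it varied by 1.15-fold (mt-Co1) to 2.05-fold (mt-Nd2).

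In the comparison of AX with NC, 0 of the 13 members passed the adjusted threshold of 0.05 in edgeR, as did 0% of the 12264 genes tested. At an unadjusted p under 0.05 edgeR gave 1 member, mt-Nd6, DESeq2 1 and limma-voom 0; edgeR gave 113 of all genes, or 0.921%. A fitted value higher in AX was found for 12 of 13 members, against 53.6% of all genes tested, and 53.6% became 43.2% when libraries were scaled by total counts alone. The median log2 fold change was 0.45 over the members and 0.02 over all genes. Since 11 of the members ranked the libraries alike, their directions are not independent of each other. No member had groups that did not overlap in CPM, which was the case for 0.0978% of all genes.

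**Figure D5:**
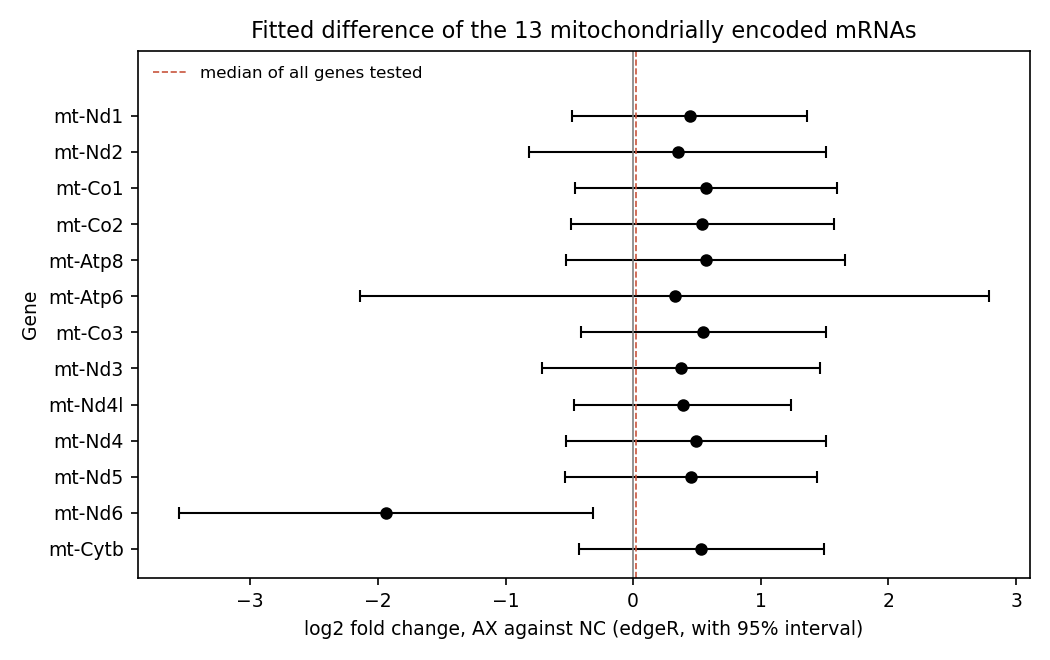
Fitted log2 fold change of AX against NC (horizontal axis) of the 13 mRNAs in genome order (vertical axis); points are edgeR estimates from 5 libraries a group, bars are 95% intervals, the grey line marks 0 and the dashed red line the median of all genes tested. The other 12 points lie between 0.32 and 0.57 with intervals that include 0, while mt-Nd6 lies at -1.94.

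A list of 41 nuclear genes, called the machinery here, was also examined, of which 39 were tested. It covers mitochondrial transcription, RNA processing, RNA stability and DNA maintenance, and includes nuclear regulators of such genes. None of the 39 passed the adjusted threshold in edgeR, as did 0% of all genes tested. An unadjusted p under 0.05 in that fit was found for 0 of the 39, against 0.921% of all genes tested. Fitted values were higher in AX for 25 (64.1%) and lower for 14, where 53.6% of all genes tested were higher. The median log2 fold change of the 39 was 0.04, against 0.02 over all genes. Tfam, which packages mitochondrial DNA and starts its transcription, had the smallest p (unadjusted p = 0.177) at 33.9 ± 7.82 CPM in AX against 28.98 ± 4.30 CPM in NC. Polrmt, the mitochondrial RNA polymerase, stood at 3.84 ± 1.18 against 3.92 ± 0.921 CPM. Lrpprc, which stabilises mitochondrial mRNAs, stood at 21.0 ± 5.86 against 20.5 ± 3.61 CPM. Elac2, the nuclease that cuts the 3′ ends of tRNAs, stood at 12.6 ± 8.29 against 9.34 ± 2.79 CPM and was highest in AX 6 at 24.99 CPM. Mterf1a, a transcription termination factor, and Tfb1m, an rRNA methyltransferase, had log2 fold changes of 0.40 ± 0.34 and -0.35 ± 0.34 (SE). Summed over the list, the machinery stood at 717 to 968 CPM, a range of 1.35-fold where the mitochondrial mRNAs ranged over 4.5-fold. The 2 ranges are not alike, because a sum over genes that move separately can vary less than the single genes do. Elac2 ranged from 5.23 to 24.99 CPM and Tfam from 25.3 to 46.4 CPM. AX 10 and NC 1, with mitochondrial shares of 20.1% and 8.74%, had the same machinery sum of 897 CPM.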

How the data were processed

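RNA of peritoneal lavage cells was sequenced in 10 libraries; whether poly(A) RNA was selected is not stated. Per the submitters' processing notes, reads were aligned with HISAT2 2.0.4 to mm10. For the counting tool, annotation and strand, the sources used here give nothing. The authors deposited a raw count and an FPKM value per gene and library. The deposited counts are whole numbers. The deposited FPKM values of the 13 members equal the count divided by the library total and by the annotated span, so they were used only as levels per length.

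CPM is the count divided by the library total. Differences were fitted on the counts of the whole table with edgeR 4.0.16 in R 4.3.3 (filterByExpr, TMM, quasi-likelihood F test, two-sided, no covariates, Benjamini-Hochberg over the 12264 genes tested, threshold 0.05). Single genes were also compared by exact two-sided permutation of mean CPM, where 5 against 5 cannot give a p below 0.00794. Alternatives were DESeq2 1.42.0, limma-voom (limma 3.58.1), other scalings and filters (50 counts in 5 libraries, or none), marker lists as covariates and leaving out libraries. Nuclear copies were found with BLAST 2.17.0 among GENCODE M21 transcripts (at least 90% identity, at least 100 bases); the rule names at most 5 copies, those with the highest total count. Members, lists and tests were chosen with earlier results of these data known. All 13 members are named. In the machinery list Tfam, Polrmt, Lrpprc and the 4 genes with the smallest p are named.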

Additional observations from a re-analysis of the deposited data

Results flagged for a closer look

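mt-Nd6 in NC 5, at 424 CPM, lay apart from the other 4 NC libraries, which ranged from 38.3 to 127 CPM. Its gap to the next library was 0.769 of the range of the group, above the critical value of 0.710 of Dixon's test for 5 values. Values of each member, their shares, the ratios between members and the ratios to nuclear copies were screened in this way within each group, 92 sets of 5 values in all. Chance picks out about 1 in 20 such sets, and here 1 of 92 was picked out. The split of mt-Atp6 was not picked out, because each group holds more than 1 library at either level.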

How the results depend on the processing

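No member passed the adjusted threshold under any of the 20 alternatives run; the smallest adjusted p of a member was 0.999. Of 260 refitted fold changes, 257 kept their direction. The 3 that turned were those of mt-Atp6, which was -0.84 with the neutrophil list as covariate, -0.46 without AX 10 and -0.25 without AX 6 and NC 1 together; the cause was not tested. Leaving out single libraries gave it values from -0.46 to 1.03. Leaving out each library in turn moved the number of genes called over the whole table from 0 to 1 (without NC 3), the median log2 fold change of the members from 0.25 (without AX 10) to 0.76 (without NC 5), and that of mt-Nd6 from -2.21 to -0.82. The difference in mitochondrial share was 1.66 to 5.10 percentage points in the same exercise. Adding the nuclear copies to their members and leaving mt-Atp6 out of the share were chosen after seeing the data and changed no direction. No paired analysis was possible because the labels of AX and NC share no replicate number. The median standard error of the members, 0.47 on the log2 scale, limits what could be detected.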
